A study of Mus musculus with 48 samples.

Results

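The caecum of the mouse faces whatever a diet and its bacteria leave in the gut, and its epithelium carries enzymes and pumps that deal with foreign compounds. These genes were followed in the caecum of mice that had received chicory or chicory compounds by mouth. A gene was taken when its symbol in the caecum table belonged to the cytochrome P450 families of xenobiotic metabolism, the aldehyde dehydrogenases (Aldh), aldo-keto reductases (Akr1), carboxylesterases (Ces), carbonyl reductases (Cbr), glutathione transferases (Gst and Mgst), UDP-glucuronosyltransferases (Ugt), sulfotransferases (Sult) or ATP-binding cassette proteins (Abc). The rule used symbols only and gave 65 genes of the 3779 tested, and all 65 were kept, since no filter on low values was applied here. The caecum table itself holds 6214 rows, fewer than the probes that the study names for its array. The study's methods also name a p value filter on the control samples. Shares of all genes given below therefore refer to the genes of this table and not to the whole genome. They are 34 phase I genes (12 Cyp, 7 Aldh, 7 Ces, 6 Akr1 and 2 Cbr), 21 phase II genes (9 Gst, 3 Mgst, 5 Sult and 4 Ugt) and 10 Abc genes.

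Phase I enzymes oxidise, reduce or hydrolyse a compound, phase II enzymes join it to glutathione, glucuronic acid or sulfate, and pumps of the Abc family carry the product out of the cell. In intestine, the pumps Abcb1a (P-glycoprotein) and Abcg2 sit on the side of the cell that faces the lumen, and Abcc3 on the side that faces the blood. Many of these genes are known to be switched by sensors of foreign compounds, such as the aryl hydrocarbon receptor, the pregnane X receptor and the transcription factor Nrf2. The Abc family also holds Abce1 and Abcf1, which act in translation and are not pumps.

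The mice were male BALB/cOlaHsd by the study's methods, 8 weeks old at the start, and had a gavage of 500 µL each day for 30 days beside standard chow. Chic mice had a decoction of chicory root flour, from 30 mg of root powder per mouse and day, and Fru mice had a fructose solution. CGA mice had a solution of chlorogenic acids, the main phenolic acids of the root, and STL mice a solution of sesquiterpene lactones, its bitter compounds. Each diet had 3 mice. The controls, 2 mice each, were Ctr1, kept in parallel with Chic and Fru and given water, and Ctr2, kept in another period in parallel with CGA and STL, for which the sources name water in some places and diluted DMSO in another. Each mouse gave 1 array, so the 16 caecum arrays (of 48 in 3 tissues) are single animals. Values below are log2 array intensities, quantile-normalized between these arrays unless called deposited, and they compare arrays at a given gene but not one gene with another. A gene was called when its adjusted p from the limma fit over all 3779 genes was below 0.05.

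Several properties of the arrays touch every result. The 4 arrays Chic 3, Fru 2, CGA 2 and STL 3 had median deposited intensities of 186 to 675, against 835 to 1687 on the other 12, so that each diet held 1 dim array and no control did. The array of Ctr1 2 had no deposited value below 300, whereas the lowest value of each other array was at most 35. All 10 epithelial markers were measured, with a summed normalized intensity of 60822 to 95426 per array. So were 5 of 8 colonocyte markers (53502 to 107421, lowest on Fru 2 and highest on STL 1) and all 7 goblet markers. No detection criterion was applied to them. Liver markers (Alb, Apoa2, Serpina1a, Mup1 and Mup2, 5 of 8 measured) summed to 6557 and 12896 in Ctr1, 1010 to 10293 in Chic and 456 to 3521 in the other groups. The labels tag 8 of the 16 arrays as female (Fru 2, Fru 3 and every CGA and STL mouse) while naming the same mice male. The Y-linked gene Eif2s3y lay between 7.57 and 9.40 on all 16 arrays, with the 8 arrays tagged female at 8.33 to 9.40. The study's text also speaks of colon where it describes the collection, and the labels of caecum.

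Some members sit beside others of their family in the genome, while others, such as the Aldh genes, are scattered. In the mouse build GRCm38.p6, Cyp2c55, Cyp2c65 and Cyp2c66 follow each other on chromosome 19, from bases 39006940 to 39186756, Ces1d, Ces1f and Ces1g lie at 93166072 to 93337209 on chromosome 8, and Ugt2b34, Ugt2b5, Ugt2b38, Sult1b1 and Sult1d1 at 86889770 to 87569006 on chromosome 5. The 3 Cyp2c genes are P450 enzymes known to act on fatty acids such as arachidonic acid, and Cyp2c55 is known as a P450 of mouse large intestine. Their upstream sequences from RefSeq are shown because Cyp2c55 varied most of all members between mice of a group, with an SD of 0.83. The SD was 0.51 for Cyp2c66 and 0.47 for Cyp2c65. Each stretch runs from 250 bases before the start that the RefSeq promoter table uses to 30 after it, on the plus strand, and capitals mark the core of the antioxidant response element, TGACNNNGC, found here as its reverse complement. The positions are chr19:39006769-39007048 for Cyp2c55, chr19:39060756-39061035 for Cyp2c65 and chr19:39113648-39113927 for Cyp2c66. For Cyp2c65 and Cyp2c66 that start is the first base of the annotated gene, whereas for Cyp2c55 it is base 39007019, inside the gene, whose first base is 39006940.
Cyp2c55: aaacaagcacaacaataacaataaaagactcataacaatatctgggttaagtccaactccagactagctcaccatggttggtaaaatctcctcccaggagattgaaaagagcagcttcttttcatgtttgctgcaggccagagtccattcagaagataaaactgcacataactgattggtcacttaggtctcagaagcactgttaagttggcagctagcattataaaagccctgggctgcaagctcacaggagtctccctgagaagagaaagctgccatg
Cyp2c65: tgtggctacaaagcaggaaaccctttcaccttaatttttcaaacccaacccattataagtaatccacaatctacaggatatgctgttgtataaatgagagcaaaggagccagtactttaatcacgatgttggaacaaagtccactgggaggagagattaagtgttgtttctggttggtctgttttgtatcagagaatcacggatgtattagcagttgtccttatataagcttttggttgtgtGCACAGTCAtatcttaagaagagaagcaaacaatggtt
Cyp2c66: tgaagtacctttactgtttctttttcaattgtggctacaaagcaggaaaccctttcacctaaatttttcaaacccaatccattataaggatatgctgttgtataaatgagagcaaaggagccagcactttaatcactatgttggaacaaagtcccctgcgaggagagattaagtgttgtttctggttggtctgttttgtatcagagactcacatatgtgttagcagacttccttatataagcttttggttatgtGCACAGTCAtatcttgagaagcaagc
Cyp2c65 and Cyp2c66 are 76.2% identical over these stretches in a global alignment, while Cyp2c55 shares 55.5% with Cyp2c65 and 52.7% with Cyp2c66. The motif begins 8 bases before the start in Cyp2c65 and at base 5 after it in Cyp2c66, and Cyp2c55 has none in this window.

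Promoter windows of 300 bases (250 before and 50 after the start) were at hand for 56 of the 65 members. TGACNNNGC, searched on both strands, was in 8 of the 56 (14.3%) and in 14% of all 27025 genes of the promoter table. The 8 were Abcb1a, Akr1c19, Aldh9a1, Cyp2c65, Cyp2c66, Cyp4f14, Gstm5 and Mgst1. GCGTG, the core of the element bound by the aryl hydrocarbon receptor, was in 18 of 56 (32.1%) against 35.2% of all genes, with 5 of 27 phase I genes, 7 of 20 phase II genes and 6 of 9 Abc genes among them. Over all members, both motifs were about as frequent as in the whole table.

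The spread between mice given the same treatment was looked at first. The SD between mice of a group, pooled over the 6 groups, had a median of 0.35 over the members and 0.30 over all genes tested, and 22 of the 65 members lay below the latter. Medians by class were 0.36 for phase I, 0.31 for phase II and 0.39 for Abc genes. Without the 4 dim arrays the medians were 0.28 for the members and 0.23 for all genes, again with 22 members below. The steadiest members were Abcf1, the translation factor, at 0.095, Akr1b3, the mouse aldose reductase, at 0.12, and Gstt3, a theta-class glutathione transferase, at 0.15.

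**Figure D1:**
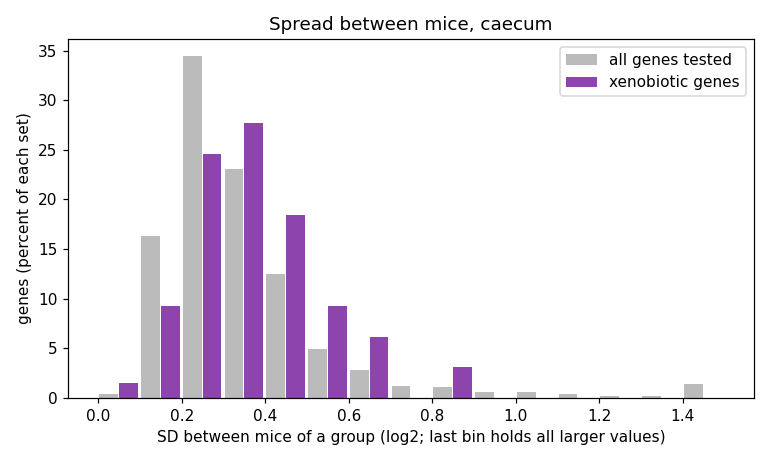
Within-group SD of 65 xenobiotic genes (purple) and 3779 genes tested (grey) over 16 caecum arrays, as percent of each set in bins of 0.1 log2. The largest member value was 0.83, and the last bin gathers all genes at 1.4 and above, none of them a member.

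The 6 members with the largest spread were Cyp2c55 (0.83), Akr1c14 (0.83), Sult1d1 (0.67), Abcb6 (0.62), Cyp2e1 (0.62) and Mgst3 (0.61). Cyp2c55 was at 14.07 and 13.61 in Ctr1, at 13.77 and 14.12 in Ctr2, at 14.24, 14.11 and 13.60 in Chic, at 14.60, 12.40 and 14.15 in Fru, at 12.94, 13.50 and 14.02 in CGA, and at 14.70, 13.90 and 12.20 in STL. The highest and the lowest of the 16 values were thus both in STL mice, and both control groups lay inside that range. Akr1c14, an aldo-keto reductase that acts on steroids, ran the same way in STL, at 10.36, 9.98 and 8.00, and between 8.15 and 10.15 in all other mice. Ces1g and Ces1d, carboxylesterases that split esters, were at 11.28, 10.68 and 9.68 and at 10.20, 9.77 and 8.23 in the STL mice. Their highest and lowest values of all 16 arrays, too, were STL 1 and STL 3.

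STL 1 held the highest value of 18 members (27.7%, against 9.52% of all genes) and the lowest of none. Ugt2b5 and Ugt2b38, glucuronosyltransferases, were at 9.58 and 9.98 on STL 1 against 7.94 and 8.64 on STL 3. Abcb1a, the P-glycoprotein gene, was at 12.17 on STL 1 against 10.46 on STL 3. Fru 2 held the lowest value of 18 members (27.7%), but also of 22.3% of all genes, and STL 3 that of 10 members (15.4% against 7.23%). With the 4 dim arrays left out and the others normalized again, STL 1 was still highest for 20 members (30.8% against 11.7%). The summed colonocyte markers were highest on STL 1 (107421), with 91994 on STL 2, 61598 on STL 3 and 53502 on Fru 2. STL 3 and Fru 2 are dim arrays. CGA 3 (104517) and Fru 1 (97912) came next after STL 1, and held the highest value of 3 and 5 members. The 4 small intestinal enterocyte markers measured (sum 18432) and the Paneth marker Lyz1 (569) were lowest on STL 1. The part of these markers in the spread was not tested. In bulk tissue, fewer cells of a type and less RNA per cell cannot be told apart.

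**Figure D2:**
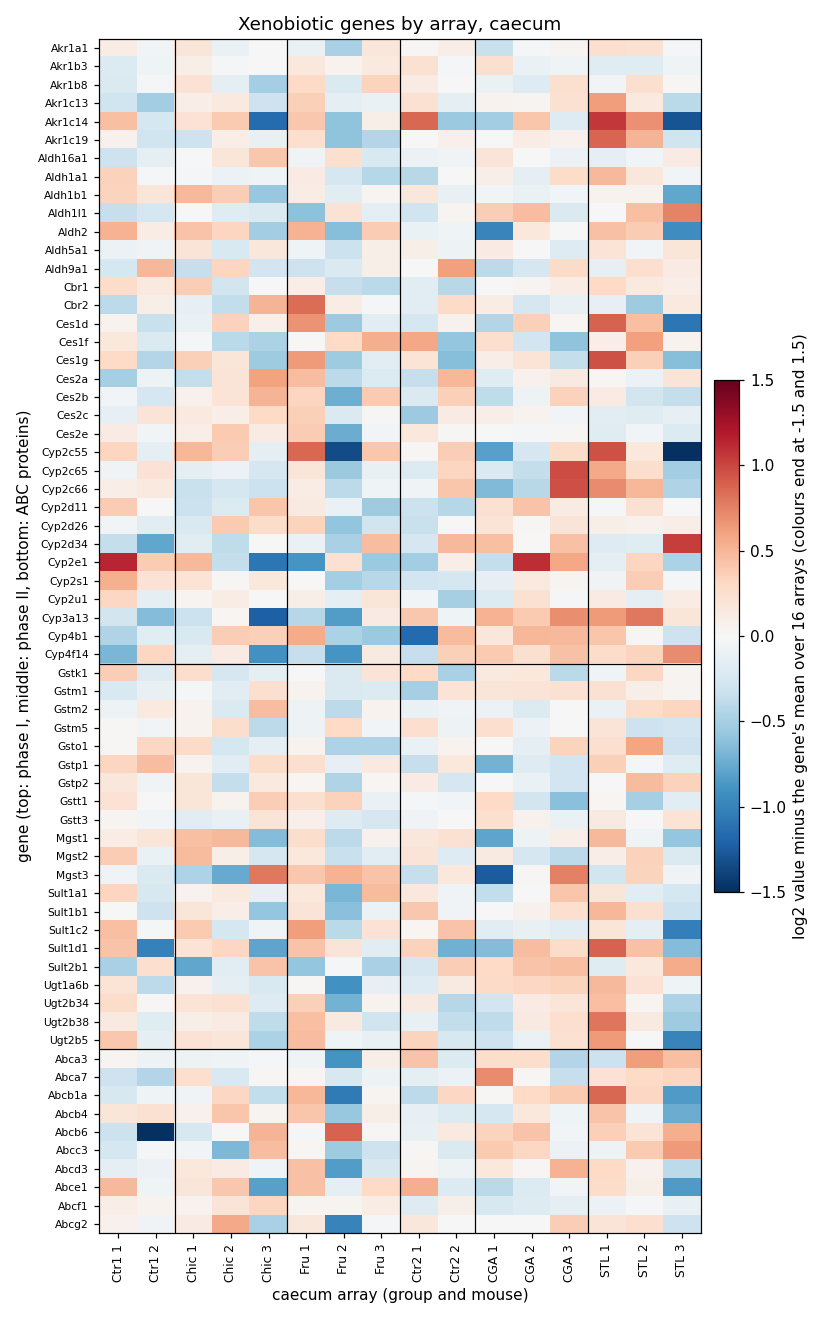
Each row is 1 of the 65 genes and each column 1 of the 16 arrays; colour gives the normalized log2 value minus that gene's mean over all arrays, red above and blue below. STL 1 is red over much of phase I and II, Fru 2 and STL 3 are largely blue, and Abcb6 on Ctr1 2 is the darkest blue cell of the Abc block.

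Across all members the STL mice differed among themselves by over 1 log2 at 18 genes (27.7%, against 12.3% of all genes), the Fru mice at 16 (24.6% against 20.3%), the Chic mice at 12 (18.5% against 11.5%) and the CGA mice at 8 (12.3% against 8.24%). The 2 mice of a control group did so at 2 members in Ctr1 (3.08% against 6.91%) and at 4 in Ctr2 (6.15% against 5.82%). Sult1d1, which sulfates catecholamines, was at 11.42 and 9.97 in Ctr1 and at 11.33 and 10.27 in Ctr2, so the controls alone spanned more than 1 log2. Without the 4 dim arrays the SD was 0.43 for Cyp2c55 and 0.48 for Akr1c14, below their values with all arrays, and 0.61 for Sult1d1, 0.60 for Mgst3 and 0.63 for Abcb6. Mgst3, a microsomal glutathione transferase, was at 10.94, 12.20 and 12.94 in CGA and at 11.72, 11.43 and 12.97 in Chic, and its second probe gave like differences, with an SD of 0.25 between the probes.

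Cyp2c66 was at 11.07 on CGA 3 against 9.44 and 9.69 on the other CGA arrays, and at 10.81, 10.60 and 9.65 in STL. Cyp2c65 was at 10.82 on CGA 3 against 9.62 and 9.49. CGA 3 was thus the highest array for both. The probe of Cyp2c66 also matches Cyp2c65, so the signals of these neighbours are not independent. The same holds for Gstp1 (Gstp2), Ces2c (Ces2b and the pseudogene Ces2d-ps), Akr1b3 (Gm6644) and Ugt1a6b (Ugt1a10, Ugt1a6a and Ugt1a7c).

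**Figure D3:**
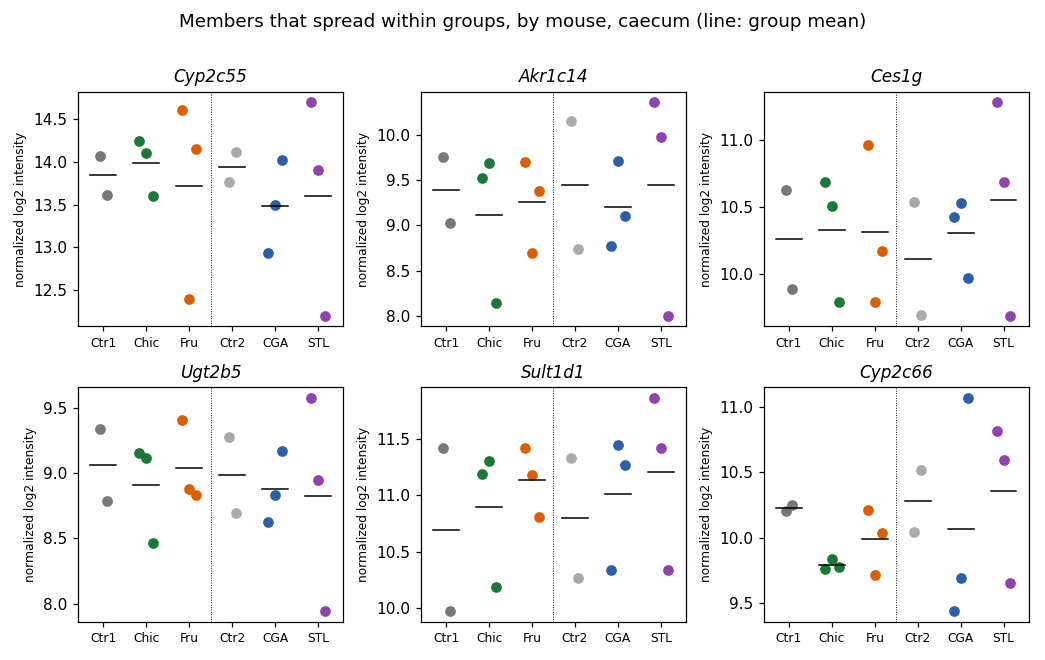
Normalized log2 intensity of 6 members that varied within groups; points are mice, numbered from left to right in each group, and lines are group means. In 4 of the 6 panels (Cyp2c55, Akr1c14, Ces1g and Ugt2b5) the highest and the lowest point are both STL mice.

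Each diet was then compared with its own control, to ask whether chicory or one of its compounds changed these genes. No member was called in any of the 4 comparisons. The calls over all genes were 0% of 3779 for Chic, 0.0265% for Fru, 0% for CGA and 0% for STL; a count of 0 members is what the whole table gave. At an unadjusted p below 0.05 stood 2 members for Chic (2.75% of all genes), 3 for Fru (7.12%), 1 for CGA (3.47%) and 1 for STL (2.86%). The 95% interval of the change lay within 2-fold up or down for 46 members in Chic, 44 in Fru, 45 in CGA and 45 in STL. These are 70.8%, 67.7%, 69.2% and 69.2% of the members, against 76.7%, 70.1%, 74.8% and 76.5% of all genes. For about 20 members in each diet, a 2-fold change could therefore not be left out.

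The groups did not overlap at 12 members for Chic (15.7% of all genes), 10 for Fru (18.2%), 8 for CGA (18.3%) and 9 for STL (17.2%). These shares are near the background. Median changes of the members were -0.016, -0.09, 0.06 and 0.11 log2 in the same order, against 0.03, 0.01, 0.04 and 0.03 over all genes. In STL 47 of the 65 members had a mean above Ctr2, 26 of 34 in phase I, 14 of 21 in phase II and 7 of 10 Abc genes, and 2092 of all 3779 genes did. In Fru 42 of 65 members had a mean below Ctr1, as did 1858 of all 3779 genes, among them 8 of 10 Abc genes and 15 of 21 phase II genes. The sign of the median change of the members depended on the processing. Under the alternatives given below it ran from -0.11 to 0.09 in Chic and from -0.67 to 0.08 in Fru. It ran from -0.25 to 0.10 in CGA and from -0.23 to 0.26 in STL. The study's methods set a threshold of 2-fold from the mean of the controls for individual mice. Applied here to normalized values taken off the log scale, with the added condition that all 3 mice pass it, it was passed by 1 member, Abcb6 in Fru, and by none in the other diets. Against the control mean of log2 values, 6.81, all 3 Chic mice would also be past 2-fold at Abcb6. Off the log scale it was passed by 0.132% of all genes in Chic, 0.926% in Fru, 0.9% in CGA and 0.476% in STL.

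**Figure D4:**
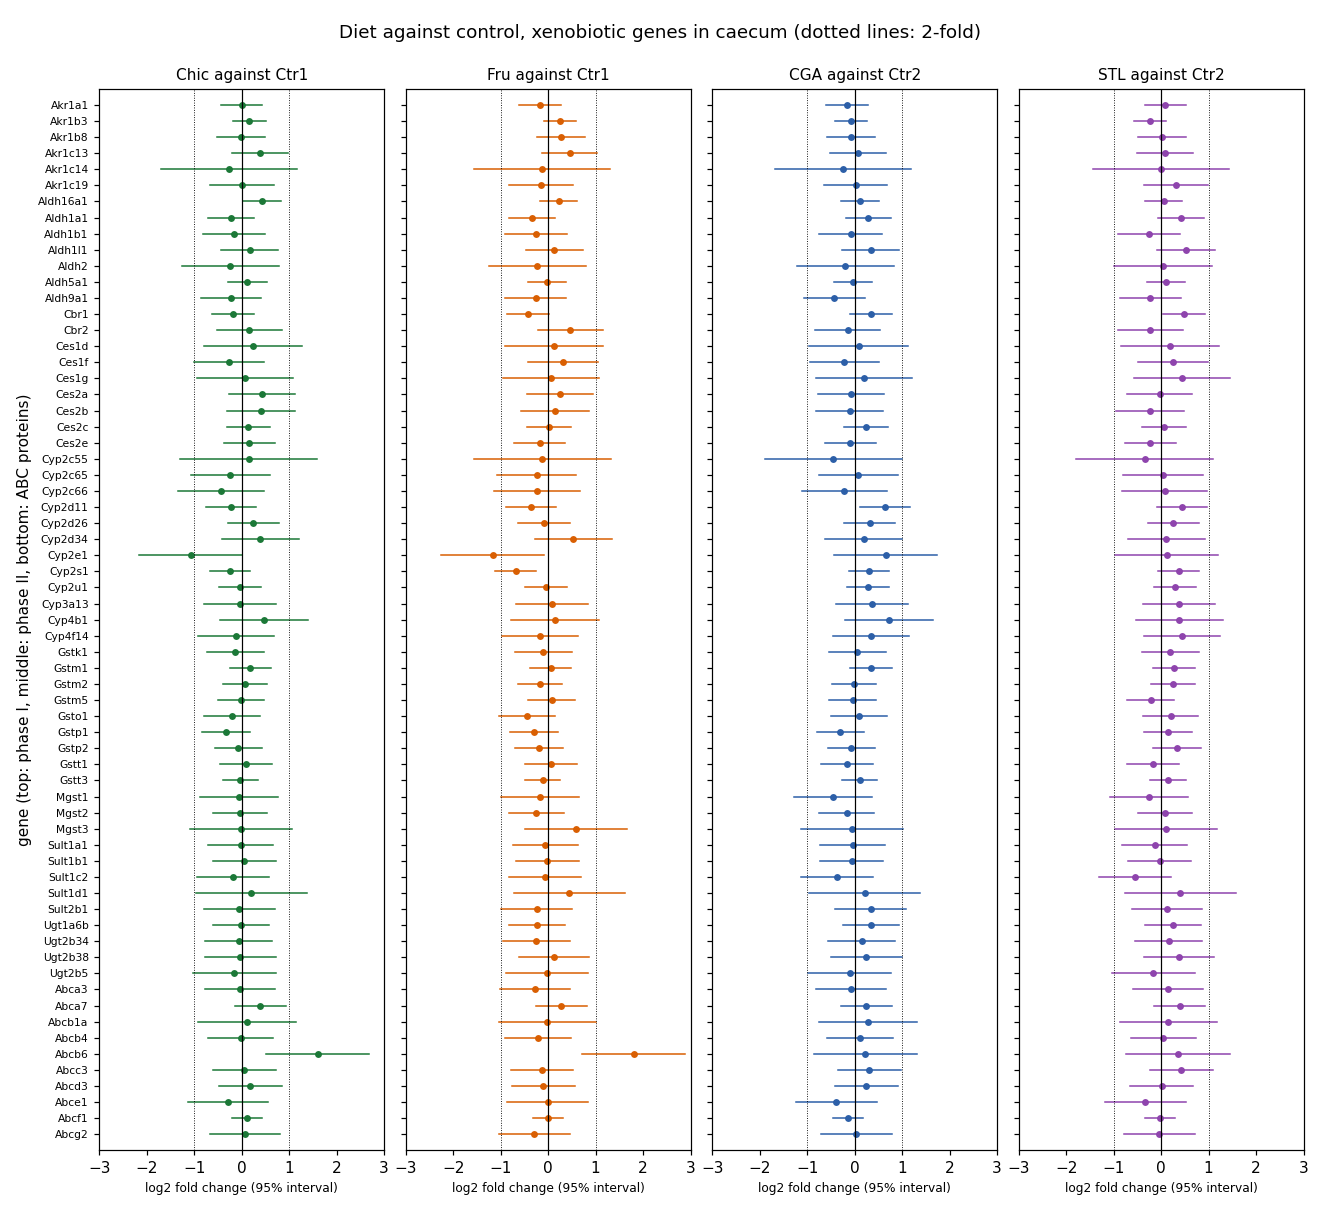
Log2 fold change of the 65 members in each diet against its control, with 95% intervals from the limma fit; dotted lines stand at a 2-fold change. All but a few intervals cross 0, the exceptions being Abcb6 and Aldh16a1 in Chic, Abcb6, Cyp2s1 and Cyp2e1 in Fru, Cyp2d11 in CGA and Cbr1 in STL.

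Among phase I genes, Cyp2s1 had the lowest unadjusted p of the oxidising enzymes. It encodes a P450 found mainly outside the liver and is a known target of the aryl hydrocarbon receptor. Its values were 10.71 and 10.39 in Ctr1, 9.88 and 9.91 in Ctr2, 10.37, 10.18 and 10.33 in Chic, 10.17, 9.66 and 9.75 in Fru, 10.05, 10.32 and 10.21 in CGA, and 10.11, 10.53 and 10.14 in STL. All 12 diet mice except STL 2 lay below the Ctr1 mice, and all except Fru 2 and Fru 3 lay above the Ctr2 mice. The change was -0.69 (SE 0.20) in Fru, with an unadjusted p of 0.00394 and an adjusted p of 0.524 in limma, and -0.25 in Chic. It was 0.37 (SE 0.20) in STL, with an adjusted p of 0.999. Fru against Chic gave -0.43, with an unadjusted p of 0.0286.

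The controls themselves differed at this gene. Ctr2 lay 0.65 log2 below Ctr1 at Cyp2s1 (value -0.65, SE 0.22, unadjusted p = 0.0096, adjusted p = 0.761 in limma), which is as large as the change in Fru. With both controls pooled, the Cyp2s1 change was -0.36 in Fru, 0.04 in STL and 0.07 in Chic, where the sign turned. Over the members, Ctr2 and Ctr1 did not overlap at 18 genes, against 33.6% of all genes, 3 had an unadjusted p below 0.05 (6.03% of all genes), and none was called (0% of all genes). The interval of this difference lay within 2-fold for 40 members, against 65.3% of all genes. The period and the solvent of the controls cannot be told apart.

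Cbr1, the cytosolic carbonyl reductase that acts on quinones and prostaglandins, had the same form. It was at 10.17 and 10.04 in Ctr1, 9.71 and 9.47 in Ctr2, 9.99, 9.55 and 9.48 in Fru, 9.90, 9.93 and 9.996 in CGA and 10.19, 10.03 and 9.99 in STL. The Fru mice lay below both Ctr1 mice, and the CGA and STL mice above both Ctr2 mice. The changes were -0.43 (SE 0.21) in Fru, 0.35 in CGA and 0.48 in STL (unadjusted p of 0.038, adjusted p of 0.999 in limma), beside -0.51 for Ctr2 against Ctr1. Pooled controls brought them to -0.18, 0.09 and 0.22.

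Cyp2d11, a mouse P450 of the 2d family, was at 9.45, 9.64 and 9.34 in CGA against 8.90 and 8.79 in Ctr2. It was at 9.60 and 9.21 in Ctr1, so the CGA mice were above their own control and within reach of the other. The change in CGA was 0.63 (SE 0.25, unadjusted p of 0.0226, adjusted p of 1 in limma) and 0.35 with pooled controls.

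Cyp2e1, which oxidises ethanol and small solvents and is abundant in liver, was at 9.29 and 8.53 in Ctr1, 8.64, 7.79 and 7.06 in Chic, and 7.27, 8.37 and 7.59 in Fru. All Fru mice lay below Ctr1, and 2 of the 3 Chic mice. So did Ctr2, at 7.63 and 8.25, which differed from Ctr1 by -0.97 log2 (SE 0.55, adjusted p of 0.921 in limma), about as much as the diets did. The diet changes were -1.08 (SE 0.50) and -1.17 (SE 0.50), with unadjusted p of 0.051 and 0.037 and adjusted p of 1 and 0.665 in limma. On the array Ctr1 2 the deposited Cyp2e1 value was 359, within 20% of that array's lowest value of 300, with 11.4% of gene rows below it. With every array raised to a common floor before normalization the Cyp2e1 changes were -0.47 and -0.49. The liver markers named above were also highest in Ctr1, and their part in the Cyp2e1 values was not tested.

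**Figure D5:**
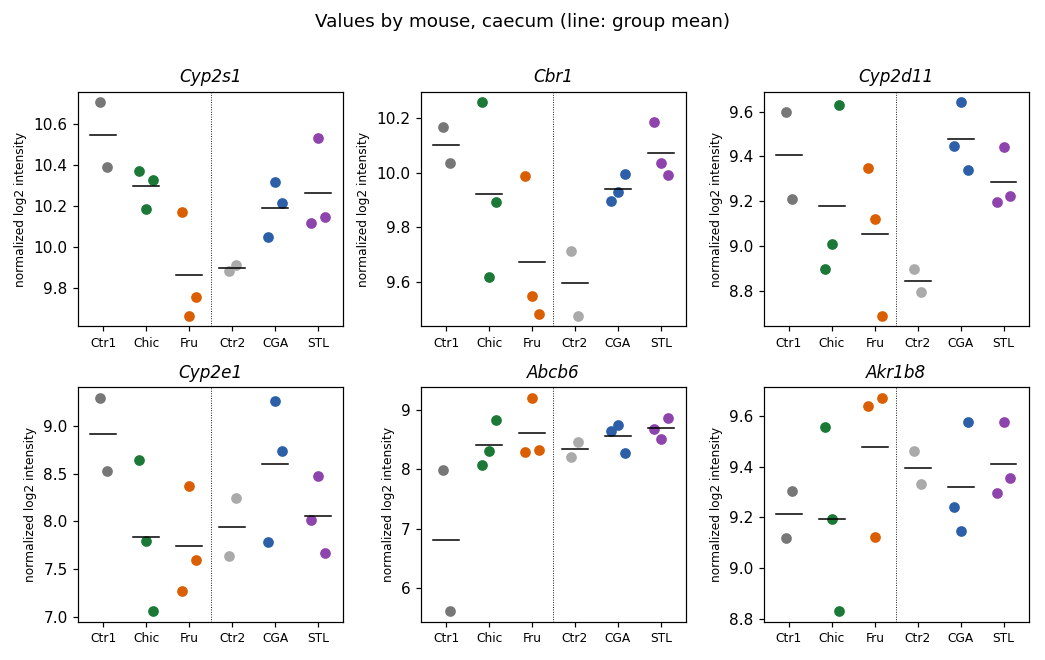
Normalized log2 intensity by mouse for Cyp2s1, Cbr1, Cyp2d11, Cyp2e1, Abcb6 and Akr1b8; points are mice, numbered from left to right in each group, lines are group means, and the dotted line parts the groups of Ctr1 from those of Ctr2. Cyp2s1 and Cbr1 are lower in Ctr2 than in Ctr1, and Abcb6 has 1 low point, Ctr1 2 at 5.62.

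Akr1b8, which reduces aldehydes and retinaldehyde, was at 9.12 and 9.31 in Ctr1, 9.46 and 9.33 in Ctr2, 9.56, 9.19 and 8.83 in Chic, 9.64, 9.12 and 9.67 in Fru, 9.24, 9.15 and 9.58 in CGA, and 9.30, 9.57 and 9.35 in STL. All groups overlapped with their controls. The changes were -0.02 in Chic (95% interval -0.53 to 0.49), 0.26 in Fru (-0.24 to 0.77), -0.07 in CGA (-0.58 to 0.43) and 0.01 in STL (-0.49 to 0.52), each SE being 0.24. A 2-fold change of Akr1b8 thus lay outside every interval. The array holds 9 spots of its probe, and on Ctr1 1 the lowest of them gave 164 against a median of 1029.

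Other phase I genes had small changes. Aldh16a1, of the aldehyde dehydrogenase family, was at 10.91, 11.10 and 11.32 in Chic against 10.61 and 10.76 in Ctr1, with no overlap and a change of 0.42 (SE 0.18, unadjusted p of 0.0381, adjusted p of 1 in limma). Aldh1a1, which makes retinoic acid, was 0.42 log2 above Ctr2 in STL (SE 0.22), and Aldh1l1, an enzyme of folate metabolism, 0.52 above it (SE 0.28). Ctr2 against Ctr1 gave -0.37 for Aldh1a1 and 0.18 for Aldh1l1. Akr1c13, a reductase of the Akr1c cluster, had changes of 0.39 in Chic and 0.45 in Fru (SE 0.27 each). Ctr2 differed from Ctr1 by 0.45 at Akr1c13, without overlap, and with pooled controls its change in Chic was 0.16. Cyp4b1 had 0.73 in CGA (SE 0.43), a value that rested on Ctr2 1 at 8.85, since the other Ctr2 mouse was at 10.48 and the CGA mice at 10.18 to 10.50. Without Ctr2 1 it was -0.09.

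Cyp3a13, an intestinal P450 of the family that handles most drugs, was at 9.74, 9.61 and 9.91 in CGA and at 9.85, 10.01 and 9.40 in STL, against 9.62 and 9.16 in Ctr2. Both groups overlapped with Ctr2, and both changes were 0.37 (SE 0.35). It was at 8.94 and 8.57 in Ctr1, 8.89, 9.24 and 7.99 in Chic and 8.79, 8.37 and 9.34 in Fru, so all CGA and STL mice lay above every mouse of the Ctr1 series. Ctr2 itself was above Ctr1 at Cyp3a13, by 0.63 (SE 0.39) and without overlap. Period and diet cannot be told apart in the difference of the CGA and STL mice from the Ctr1 series. Cyp2d26, of the same family as Cyp2d11, was at 11.42, 11.22 and 11.41 in CGA and 11.30, 11.28 and 11.31 in STL against 10.87 and 11.20 in Ctr2, without overlap, with changes of 0.31 and 0.26 (SE 0.25).

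The remaining phase I genes are given by their changes in Chic, Fru, CGA and STL. Cyp2u1, a P450 of long-chain fatty acids, had -0.03, -0.04, 0.27 and 0.30 (SE 0.20), and Cyp2d34 had 0.39, 0.53, 0.19 and 0.11 (SE 0.38). Ctr2 against Ctr1 gave -0.35 for Cyp2u1 and 0.69 for Cyp2d34. Cyp4f14, known for the hydroxylation of leukotriene, had -0.12, -0.18, 0.35 and 0.43 (SE 0.37). None of these passed the test. Akr1a1, the general aldehyde reductase, stayed between 11.10 on Fru 2 and 11.83 on STL 1 over all 16 arrays. Aldh5a1, which acts on succinate semialdehyde, stayed between 8.52 on Fru 2 and 9.04 on STL 1. Akr1c19, of the Akr1c cluster, had the same arrays at its ends, 10.13 on Fru 2 and 11.60 on STL 1. Aldh1b1, a mitochondrial aldehyde dehydrogenase, had -0.16, -0.25, -0.09 and -0.25 (SE 0.31), and Aldh9a1, which acts on aminoaldehydes, -0.22, -0.26, -0.43 and -0.23 (SE 0.30), lower in mean than the control in each diet. Cbr2, a carbonyl reductase, had 0.16, 0.47, -0.15 and -0.23 (SE 0.32).

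The carboxylesterases of the Ces2 cluster, which hydrolyse drugs and glycerides, differed little: Ces2a, Ces2b, Ces2c and Ces2e had group means that stayed within 2-fold of each control. Ces2e was at 12.81, 12.94 and 12.78 in STL against 13.15 and 13.01 in Ctr2, without overlap, and its change was -0.23 (SE 0.25). Aldh2, the mitochondrial enzyme that clears acetaldehyde, ranged from 9.26 on CGA 1 to 10.77 on Fru 1 and had an SD of 0.58 between mice.

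Among phase II genes, the 95% interval lay within 2-fold for 18 of 21 (85.7%) in both Chic and Fru, for 16 (76.2%) in CGA and for 15 (71.4%) in STL. Over all genes these shares were 76.7%, 70.1%, 74.8% and 76.5% in Chic, Fru, CGA and STL. Gstp1, a pi-class glutathione transferase, was at 10.15, 9.93 and 10.37 in Chic against 10.41 and 10.56 in Ctr1, a change of -0.34 (SE 0.23), and had -0.30 in CGA. Ctr2 differed from Ctr1 by -0.49 at Gstp1, without overlap, and pooled controls brought the Chic change to -0.09. The second probe, which matches Gstp1 alone, gave 0.28 in CGA, so the direction there differed between the probes. Over the 7 genes with a pair of probes (Ces2c, Gstm1, Gstm2, Gstp1, Gstp2, Mgst1 and Mgst3), the probes had the same sign in 21 of 28 diet comparisons and differed by at most 0.58. Gsto1, an omega-class enzyme that reduces dehydroascorbate, was at 11.30, 10.79 and 10.79 in Fru against 11.26 and 11.56 in Ctr1, with a change of -0.45 (SE 0.27).

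Gstm1, a mu-class transferase, was at 10.97, 10.98 and 11.01 in CGA, and its Ctr2 mice were at 10.29 and 10.99. The change of 0.35 rested on the first of these controls and was -0.0038 without it. Gstm2, which the study lists among xenobiotic genes, had changes of 0.07, -0.17, -0.02 and 0.25 in Chic, Fru, CGA and STL. Sult1c2, a sulfotransferase, was at 9.82, 9.504 and 8.61 in STL and at 9.47, 9.53 and 9.47 in CGA against 9.67 and 10.06 in Ctr2. Its changes were -0.55 (SE 0.35) and -0.38, and the CGA mice lay below both controls. Mgst1, a microsomal glutathione transferase, had -0.45 in CGA (SE 0.38), with CGA 1 lowest at 10.01. Without CGA 1 the change was -0.19, and the second probe of Mgst1 gave -0.10 in CGA.

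The remaining phase II genes also failed the test. Sult1a1, the sulfotransferase of simple phenols, had changes of -0.02, -0.06, -0.04 and -0.14 in Chic, Fru, CGA and STL (SE 0.32), and Sult1b1, which acts on thyroid hormones and phenols, 0.06, -0.02, -0.07 and -0.03 (SE 0.31). Sult2b1, a cholesterol sulfotransferase, had -0.05, -0.24, 0.34 and 0.12 (SE 0.35). The first 2 of these differed from their controls by less than 1 SE in every diet. Ugt1a6b, which glucuronidates phenols, was at 13.43, 13.46 and 13.48 in CGA against 12.95 and 13.28 in Ctr2, without overlap, with a difference of 0.34 (SE 0.27). Ugt2b34 had -0.07, -0.25, 0.15 and 0.15 (SE 0.33), and its ends were 11.61 on Fru 2 and 12.77 on STL 1. Among glutathione transferases, Gstk1 had -0.14, -0.10, 0.06 and 0.19 (SE 0.28), Gstt1 0.09, 0.06, -0.17 and -0.17 (SE 0.25), Gstm5 -0.02, 0.07, -0.04 and -0.22 (SE 0.23) and Gstp2 -0.07, -0.19, -0.07 and 0.33 (SE 0.23). The microsomal Mgst2, which can also make leukotriene C4, had -0.04, -0.25, -0.17 and 0.08 (SE 0.27).

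Of the Abc genes, Abcb6, a porphyrin transporter, had the largest change of any member in Chic and in Fru. It was at 7.99 and 5.62 in Ctr1, 8.08, 8.32 and 8.82 in Chic, 8.29, 9.21 and 8.33 in Fru, 8.21 and 8.47 in Ctr2, 8.65, 8.75 and 8.28 in CGA, and 8.68, 8.52 and 8.87 in STL. It was the only member at which both Ctr1 mice lay outside the range of the 14 other arrays, as did 3.7% of all genes. The changes were 1.60 (SE 0.51, unadjusted p of 0.00736, adjusted p of 1 in limma) in Chic and 1.80 (SE 0.51, unadjusted p of 0.00339, adjusted p of 0.524) in Fru, and Ctr2 differed from Ctr1 by 1.53. The deposited Abcb6 value on Ctr1 2 was 302, beside that array's lowest value of 300, with 0.267% of gene rows below it. With the common floor the Abcb6 changes were 0.365 in Chic and 0.51 in Fru. Without Ctr1 2 they were 0.43 and 0.63, and without Ctr1 1, with Ctr1 2 as the lone control, 2.84 and 3.04 (adjusted p of 0.00103 and 5.56e-04), the only calls of a member in any setting for a diet.

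The intestinal pumps did not pass the test. Abcb1a was at 11.08 and 11.25 in Ctr1 and 10.91 and 11.62 in Ctr2, and each diet group overlapped with its control. Abcg2 was at 11.42 and 11.31 in Ctr1, 11.49, 11.92 and 10.87 in Chic, and 11.53, 10.36 and 11.33 in Fru, with the dim arrays Chic 3 and Fru 2 lowest. Abcc3 was at 10.82 and 10.58 in Ctr2, 11.19, 11.11 and 10.71 in CGA and 10.72, 11.19 and 11.44 in STL, which overlapped. Abcb1a had changes of 0.11, -0.02, 0.28 and 0.15 in Chic, Fru, CGA and STL, and Abcg2 of 0.06, -0.29, 0.04 and -0.04. Abca7, a lipid transporter, was at 9.10, 8.62 and 8.87 in Chic against 8.54 and 8.41 in Ctr1, with a change of 0.39 (SE 0.25). Its change in STL was also 0.39, again without overlap. Fru and Ctr2 lay above Ctr1 at Abca7 as well, by 0.28 and 0.26, each without overlap. The deposited Abca7 value on Ctr1 2 was 346, near that array's lowest value of 300, with 8.89% of gene rows below it. Abcb4, which moves phosphatidylcholine into bile, had -0.02, -0.22, 0.11 and 0.05 (SE 0.32) and its ends were both STL mice, 10.93 on STL 1 and 9.75 on STL 3. Abcd3, which imports fatty acids into peroxisomes, was at 11.85, 11.82 and 11.64 in Chic against 11.57 and 11.61 in Ctr1, without overlap, with a change of 0.18 (SE 0.31). Abca3, a lipid transporter known from lung surfactant, had -0.04, -0.27, -0.08 and 0.14 (SE 0.34). The translation proteins Abce1 and Abcf1 had -0.29, -0.01, -0.39 and -0.33 (SE 0.40) and 0.12, -0.01, -0.14 and -0.02 (SE 0.15).

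The diets that share a control were also set against each other. Fru against Chic gave no call among members and 0% over all genes, and STL against CGA likewise 0%. Gstp1 was 0.44 log2 higher in STL than in CGA (SE 0.21, 95% interval -0.01 to 0.89), with STL mice at 10.45, 10.06 and 9.91 and CGA mice at 9.39, 9.90 and 9.81, which did not overlap. That probe also matches Gstp2. The probe that matches Gstp1 alone had changes of 0.28 in CGA and 0.13 in STL against Ctr2, so with it Gstp1 was not higher in STL than in CGA. Ces1f was 0.58 higher in Fru than in Chic (SE 0.30), again without overlap.

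Of 59 sensors, partner enzymes and oxidative stress genes listed beside the members, 27 were measured and none was called in any diet. Gss, glutathione synthetase, was at 8.83 and 7.27 in Ctr1 and at 9.02, 9.73 and 9.03 in Fru, a change of 1.21 (SE 0.40, unadjusted p of 0.0096, adjusted p of 0.548 in limma), with Ctr1 2 again the low value. The Ctr2 mice were at 8.92 and 9.18 for Gss. Cyb5r3, a cytochrome b5 reductase, had -0.47 in Fru and 0.48 in CGA (SE 0.17 each), and Gclc, which starts glutathione synthesis, 0.61 in CGA (SE 0.24). At Cyb5r3 both Ctr2 mice (8.64 and 8.29) lay below both Ctr1 mice (8.73 and 8.92). Median changes over the 27 were 0.07, 0.06, 0.11 and 0.07 in Chic, Fru, CGA and STL.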

How the data were processed

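Total RNA of caecum was labelled with Cy3 and hybridised to Agilent whole mouse genome arrays, 1 colour and 1 mouse per array. The intensity values deposited by the authors are whole numbers; the study's methods name quantile normalization, but the array medians of the table differ, and the sources name GenePix software as well as Agilent Feature Extraction. The table has 6214 rows; 227 control rows were left out, 878 of the 5987 gene rows have no symbol, and 110 symbols (of no member) were updated through RefSeq accessions. The 23 values at or below 0 (in no member) were left out. Values were put on the log2 scale and quantile-normalized, spots of a probe averaged, and the brightest probe kept for each of 3779 genes. No background correction was possible from this table, and detection calls were not used here. The number of arrays limits the precision.

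Groups were compared with limma 3.58.1 in R 4.3.3 (lmFit and eBayes, two-sided, 6 groups in 1 fit, 10 residual degrees of freedom), with Benjamini-Hochberg adjustment over all genes. The SE comes from the moderated variance. The fit was also run on simulated data, drawn as independent normal values with the mean and SD of each gene. That simulation held no dim arrays, no floor and no normalization step, so it does not show how the fit behaves under these. All 99424 caecum values equal those of the deposited value table for the mapped sample. Named members are those called, the 4 highest and 4 lowest statistics of each diet, the extremes of spread, Akr1b8, Gstm2 and known gut enzymes and pumps; the other members were named after their values were seen, to account for all. Members and lists were chosen with earlier results of these data known. Known genes such as Nqo1, Cyp1a1, Cyp3a11 and the Gsta class have no row in the caecum table and could not be examined. Of 66 gut enzymes and pumps listed beforehand, 40 were in the table. Motif searches used Python 3.11.15, and figures matplotlib 3.10.9. The alternatives were another or no normalization, a common floor, the mean of probes, a filter on dim genes, pooled controls, only the groups compared, a variance trend, array weights, a replicate block and each array left out; leaving out the 4 dim arrays, the median over spots and the fold threshold on deposited values were chosen after seeing the data.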

Additional observations from a re-analysis of the deposited data

How the results depend on the processing

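The count of members called was 0 under 15 to 17 alternatives in each of the 7 comparisons, apart from 1 setting. Leaving out each array in turn gave 0 to 1 members called in Chic against Ctr1, in Fru against Ctr1 and in Ctr2 against Ctr1, the 1 being Abcb6 without Ctr1 1, and 0 in the other comparisons; that setting also called 40 of all genes in Chic and 44 in Fru. The replicate numbers are names of separate mice, with correlations of deviations between same-numbered mice from -0.41 to 0.57, and with a replicate block 0 members were called in each comparison. The fold threshold read on the mean of the mice, off the log scale, was passed by 1 member in Chic and 2 in Fru; on the log2 scale Abcb6 and Cyp2e1 were past 2-fold in both diets.

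Of 38 changes of named members followed over 637 settings in all, 26 kept their sign throughout and 22 settings turned a sign, 7 of them for a change larger than its SE. On values as deposited, with the dim array Fru 2 not rescaled, Fru against Ctr1 turned to -0.22 for Abcb6, -0.36 for Akr1b3, -0.17 for Cbr2 and -0.41 for Akr1b8. Pooled controls turned Cyp2s1 in Chic to 0.0737. Without Ctr2 1, Gstm1 and Cyp4b1 in CGA turned to -0.0038 and -0.0894; leaving out 1 array at a time, the changes of named members in CGA ran from -0.7287 for Aldh9a1 (without Ctr2 1) to 1.5473 for Cyp4b1 (without Ctr2 2). With 3 mice per diet and 2 per control, 1 mouse could decide a value, and intensities near an array's lowest values carry little information. Period and control cannot be told apart.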
